A study of Mus musculus with 2 samples.

Results

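The connexin genes of heart and vessels are described here across the hearts of 2 mice. The members were fixed by name as 9 gene symbols, Gja1, Gja3, Gja4, Gja5, Gjb2, Gjb6, Gjc1, Gjc3 and Gjd3, and all 9 were found by symbol and identifier among 55536 annotated genes. The other 11 connexin genes of the annotation are given beside them. Total RNA reduced in ribosomal RNA was sequenced from bulk heart tissue of B6CASTF1/J males, first-generation crosses of B6 with CAST, at an age of 2 months. No treatment and no second group is given, so there is no contrast: each value is a level in 1 of 2 libraries, called replicate 1 and replicate 2 as the labels number them. The libraries share a donor entry in the labels while the males carry separate numbers, so 2 animals is how the labels were read. Heart tissue mixes muscle, vessels and nerves, so fewer cells of a type and less RNA per cell cannot be told apart.

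Connexins are membrane proteins that assemble in rings of subunits called connexons. A connexon of one cell docks with that of its neighbour to form a gap junction channel, through which ions and small molecules pass. In the heart these channels sit mainly at the intercalated discs, where they carry the action potential from one muscle cell to the next, and endothelial and smooth muscle cells of vessels are coupled by connexins as well. Genes are named by sequence group (Gja, Gjb, Gjc, Gjd) and the proteins by their predicted mass in kilodaltons: Gja1 encodes Cx43, Gja5 Cx40, Gjc1 Cx45, Gja4 Cx37, Gja3 Cx46, Gjd3 Cx30.2, Gjc3 Cx29, Gjb2 Cx26 and Gjb6 Cx30.

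What the members share in sequence is shown first, because it decides whether their reads can be told apart. The first extracellular loop of connexins, which takes part in docking, holds 3 cysteines that are conserved across the family. In the GENCODE M21 coding sequences of the members, a cysteine codon, 6 codons, a second cysteine codon, 3 codons and again a cysteine codon occurred once in each of the 9. It is printed below 5′ to 3′ on the coding strand, with the 3 cysteine codons in capitals. Each lies within a coding exon (mm10).
Gja1 (chr10:56387706-56387741, plus strand): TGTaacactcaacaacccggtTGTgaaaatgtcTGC
Gja3 (chr14:57036719-57036754, minus strand): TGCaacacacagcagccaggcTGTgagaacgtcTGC
Gja4 (chr4:127312774-127312809, minus strand): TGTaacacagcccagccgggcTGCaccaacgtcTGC
Gja5 (chr3:97050788-97050823, plus strand): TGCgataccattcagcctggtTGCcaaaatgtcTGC
Gjb2 (chr14:57100558-57100593, minus strand): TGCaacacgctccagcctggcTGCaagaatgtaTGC
Gjb6 (chr14:57124611-57124646, minus strand): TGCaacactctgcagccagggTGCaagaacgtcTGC
Gjc1 (chr11:102800984-102801019, minus strand): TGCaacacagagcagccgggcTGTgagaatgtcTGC
Gjc3 (chr5:137957797-137957832, minus strand): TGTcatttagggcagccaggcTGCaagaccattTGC
Gjd3 (chr11:98982822-98982857, minus strand): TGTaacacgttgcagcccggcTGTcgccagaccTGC

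The spacing of the cysteine codons is common to the 9 sequences while the bases between them differ. A second run, a cysteine codon, 4 codons, a cysteine codon, 5 codons and a cysteine codon, also occurred once in each member, at the place of the second extracellular loop. Both runs were held by 172 of 21526 annotated coding sequences (0.799%), among them 18 of the 20 connexin genes. Aligned coding sequences of the members were 55.8% identical (Gjc3 and Gjd3) to 75.8% identical (Gjb2 and Gjb6), with a median of 64.4% over 36 pairs. The main transcripts of Gja1, Gja3, Gja4, Gjb2, Gjb6, Gjc1 and Gjd3 shared no stretch of 31 bases with any other gene. Such stretches made up 0.586% of the words of Gja5-201 and 7.13% of those of Gjc3-201, the largest share among the members' main transcripts. The coding part of the main transcript lay in a single exon in 8 members and in 2 exons in Gjc3.

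The 9 genes fell into 5 that were detected, at 1 TPM or more in both libraries, and 4 that were not. TPM, the deposited unit of level, is a count corrected for transcript length and scaled to the same sum in each library, so levels of different genes can be compared. The same share of detected genes was 49.8% among the 22015 nuclear protein-coding genes. Expected counts, the reads assigned to a gene, summed to 39177981 in replicate 1 and 44544839 in replicate 2.

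Gja1 (ENSMUSG00000050953.10; mm10 chromosome 10, 56377330 to 56402513, plus strand) encodes Cx43, the principal channel of working atrial and ventricular muscle. It stood at 121.31 TPM in replicate 1 on 11153 counts and at 137.41 TPM in replicate 2 on 14331 counts, a mean of 129 ± 11.4 TPM (SD, n = 2). The interval the authors give within a library was 117 to 123 TPM and 133 to 139 TPM, so the libraries lay further apart than that interval is wide. Gja1 ranked 436 among the 22015 nuclear protein-coding genes by mean TPM.

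Gjc1 (ENSMUSG00000034520.14; chromosome 11, 102799579 to 102819700, minus strand) encodes Cx45, the connexin of the early heart tube and, in the adult, of nodal and conducting cells and smooth muscle. It stood at 8.67 and 8.98 TPM on 500 and 585 counts, a mean of 8.82 ± 0.219 TPM. Gja1 was 14.0 and 15.3 times as high as Gjc1 in the 2 libraries. Gjc1 was thus the second connexin in both libraries, and its SD was 2.48% of its mean against 8.80% for Gja1.

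Gja3 (ENSMUSG00000048582.7; chromosome 14, 57034460 to 57058100, minus strand) encodes Cx46, best known as a channel of lens fibre cells. It stood at 7.03 and 8.59 TPM on 380 and 511 counts, a mean of 7.81 ± 1.10 TPM. Of 4 lens genes, Cryaa, Crybb2 and Mip were listed at 0 in both libraries, and Bfsp1 stood at 0.11 and 0.10 TPM. Gja3 thus had counts well above 0 in libraries where the lens genes were at or near 0.

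Gja5 (ENSMUSG00000057123.14; chromosome 3, 96904693 to 97077416, plus strand) encodes Cx40, the channel of atrial muscle, of the His bundle and its branches, and of arterial endothelium. It stood at 4.76 and 5.45 TPM on 329 and 463 counts, a mean of 5.11 ± 0.488 TPM. Gja4 (ENSMUSG00000050234.7; chromosome 4, 127311421 to 127314039, minus strand) encodes Cx37, a connexin of arterial and other endothelium. It stood at 4.23 and 4.66 TPM on 208 and 260 counts, a mean of 4.45 ± 0.304 TPM. Gja5 was 1.13 and 1.17 times as high as Gja4, and the intervals the authors give for these genes overlapped within each library, at 3.74 to 5.84 against 3.61 to 4.73 TPM in replicate 1.

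The remaining 4 members were near 0. Gjd3 (chromosome 11, 98982180 to 98983016, minus strand) encodes Cx30.2, known in mouse from the atrioventricular node, where it slows conduction. It stood at 0.22 and 0.12 TPM on 5 and 3 counts. Its gene model holds 837 bases in 1 exon, all of them coding sequence. Gjc3 (chromosome 5, 137953461 to 137963098, minus strand), which encodes Cx29 of myelinating cells, stood at 0.12 and 0.11 TPM on 14 and 15 counts. Gjb2 (chromosome 14, 57098600 to 57104702, minus strand), which encodes Cx26 of epithelia and the inner ear, had 1 count in each library, 0.01 TPM. Gjb6 (chromosome 14, 57123303 to 57133611, minus strand), which encodes Cx30 of the inner ear, glia and skin, had 0 counts in both. A count of 0 allows a level of up to 0.0483 and 0.0425 TPM for the main transcript of Gjb6 (3 counts in each library, counting error only). The interval the authors give for the gene was far wider, 0.0184 to 1.02 TPM in replicate 1 and 0.0146 to 0.885 TPM in replicate 2, and it passed the 1 TPM threshold in replicate 1.

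**Figure D1:**
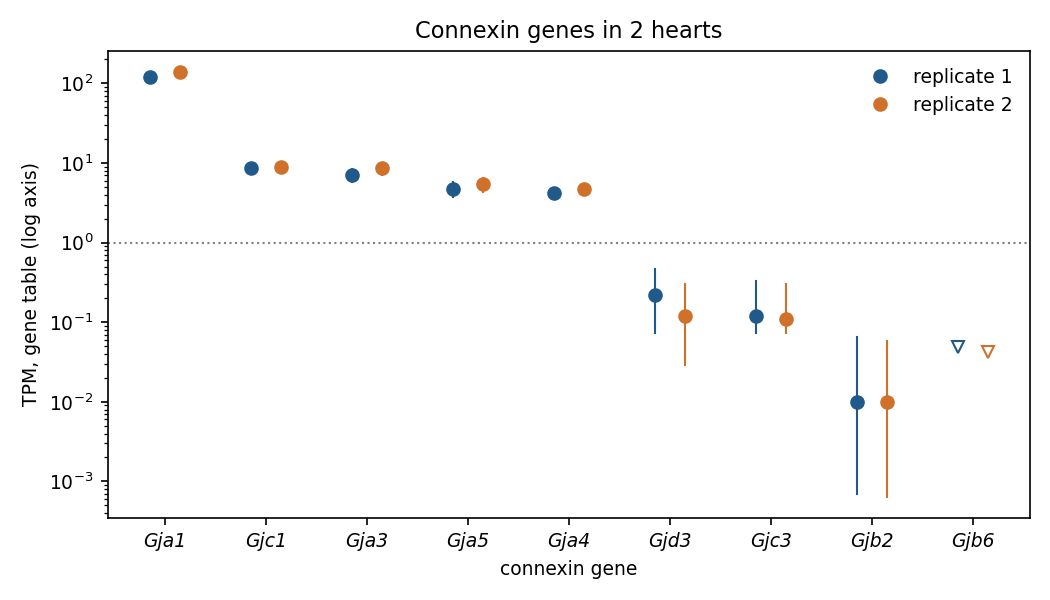
TPM of the 9 connexin genes on a log axis, 1 point per library. Bars are the interval within a library that the authors deposited. Open triangles mark the level that 3 counts would give for Gjb6, which had 0 counts, and the dotted line marks 1 TPM. No bar is drawn for Gjb6, whose deposited intervals reach 1.02 TPM in replicate 1 and 0.885 TPM in replicate 2. Gja1 sits at 121.31 and 137.41 TPM, 4 genes lie between 4.23 and 8.98 TPM, and the 4 others lie at or under 0.22 TPM.

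The levels of the detected members were in the order Gja1, Gjc1, Gja3, Gja5 and Gja4 in each library. The values of neighbours in that order did not overlap between the 2 libraries, but with 2 values each this is a description. Gjc1 was 1.23 times as high as Gja3 in replicate 1 and 1.05 times as high in replicate 2, and their within-library intervals overlapped (7.88 to 9.61 against 5.70 to 8.51 TPM in replicate 1). Gja3 was 1.48 and 1.58 times as high as Gja5. The step from Gja1 to the others in the gene table, 14.0-fold or more, was larger than any step among them.

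Gja1 held 82.7% and 82.9% of the summed TPM of the 20 connexin genes, a mean of 82.8 ± 0.168%. Gjc1 followed at 5.66 ± 0.347%, Gja3 at 4.99 ± 0.277%, Gja5 at 3.27 ± 0.0314% and Gja4 at 2.85 ± 0.0502%. The 4 undetected members summed to 0.350 and 0.240 TPM, and the 11 connexin genes outside the set to 0.400 and 0.420 TPM, of 147 and 166 TPM for all 20. None of the 11 reached 1 TPM. Among them Gjb5 had 5 and 6 counts and Gja6 2 and 4, while Gja10, Gjb1, Gjd2, Gjd4 and Gje1 had 0 counts in both libraries.

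The pannexins form channels in the membrane of single cells and share the fold of connexins without their sequence. Panx1 stood at 1.59 and 1.45 TPM on 70 and 78 counts, below each of the 5 detected connexins. Panx2 stood at 0.68 and 0.35 TPM, and Panx3 had 0 counts in both.

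Among the members 3 are neighbours in the genome, and they differed in level. Gja3, Gjb2 and Gjb6 lie on chromosome 14 with 40.5 kb between Gja3 and Gjb2 and 18.6 kb between Gjb2 and Gjb6. Only Gja3 of the 3 was detected.

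The deposited files hold a second quantification, made directly from the reads, in which the level of a gene is the sum of its transcripts. It gave the same 5 members at 1 TPM or more and a higher value for 4 of them. Gja1 stood at 133 and 152 TPM, Gjc1 at 10.2 and 10.6, Gja5 at 6.48 and 7.23 and Gja4 at 4.67 and 5.17 TPM. Gja3 was lower, at 5.13 and 5.89 TPM. The order of Gja3 and Gja5 was therefore turned around: Gja3 was 0.791 and 0.815 times as high as Gja5 in the table made from the reads. The first and second places, Gja1 and Gjc1, were the same in both tables.

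The transcripts of Gja3 and Gja5 show where these tables part. In the table made from alignments, Gja3-202, a coding fragment of 284 bases, held 2.62 and 3.38 TPM on 15 and 22 counts, because a short transcript gains a high TPM from few reads. Gja3-201, of 2766 bases, held 4.42 and 5.21 TPM on 365 and 489 counts. The table made from the reads gave Gja3-202 a level of 0 and all of the gene to Gja3-201. The short transcript of Gja5 went the other way. Gja5-202, of 405 bases, held 1.38 and 1.21 TPM on 13 counts in each library in the table made from alignments, and 2.51 and 2.15 TPM on 8.78 and 8.50 counts in the table made from the reads. Gja5-201, of 3109 bases, differed less, at 3.39 and 4.20 TPM on 316 and 445 counts in the first table and 3.49 and 4.41 TPM in the second.

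Transcripts under 500 bases were then left out of both tables, a choice made after these values were seen. From alignments Gja3 stood at 4.81 ± 0.559 TPM and Gja5 at 3.82 ± 0.601 TPM, and from the reads Gja3 stood at 5.51 ± 0.539 TPM and Gja5 at 4.53 ± 0.787 TPM. Gja3 was above Gja5 in both tables, 1.30 and 1.23 times from alignments and 1.29 and 1.16 times from the reads. The placing of Gja5 above Gja3 in the full table made from the reads thus rested on a 405-base transcript with under 9 counts in each library. Gja5 was below Gja4 in both tables without the short transcripts, at 0.801 and 0.910 times its level from alignments and 0.849 and 0.984 times from the reads. The order of Gja5 against Gja3 and Gja4 therefore changed with a few reads of short transcripts, while Gja1 and Gjc1 held the first 2 places in both tables with and without them.

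**Figure D2:**
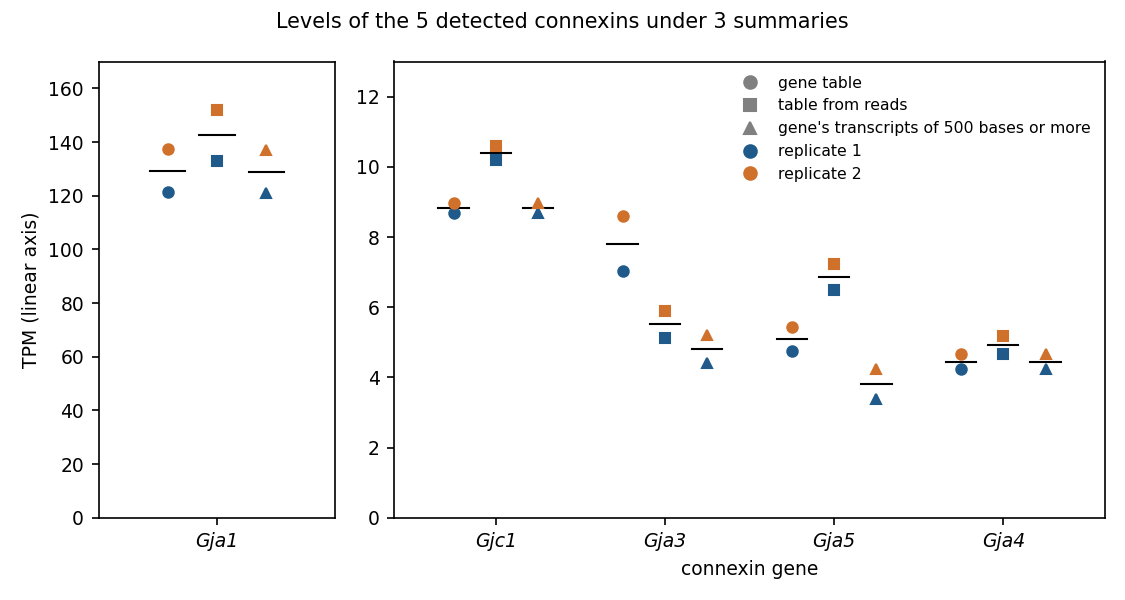
Levels of the 5 detected connexins in TPM on linear axes (Gja1 on its own axis), 1 marker per library with the mean as a bar, from the gene table (circles), from the table made directly from the reads (squares) and from the gene's transcripts of 500 bases or more (triangles). Gja3 lies above Gja5 in the gene table, at 7.03 and 8.59 against 4.76 and 5.45 TPM, and below it in the table made from the reads.

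The third transcript of Gja5, Gja5-203, reaches far upstream. Its first exon, of 697 bases, overlaps the span of Gpr89 on the opposite strand over 654 bases. Of the 31-base words of the transcript, 21.9% occur also in transcripts of Zfp697. Gpr89 stood at 7.57 and 9.29 TPM. Gja5-203 held 0.00 and 0.04 TPM in the table made from alignments but 0.483 and 0.676 TPM, on 52.1 and 82.4 counts, in the table made from the reads. Read on the opposite strand, 3.71% of the words of Gja5-203 occur in annotated transcripts of any gene, and the part that belongs to Gpr89 was not determined. Whether the counting used strand is not given in the sources used here, so reads of Gpr89 and of this exon may not be told apart. The words shared with Zfp697 lie on the same strand as its transcripts, so strand would not separate those reads. The part of either gene in the counts of Gja5-203 was not tested.

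Gja1 has 8 annotated transcripts, of which 2 carry the whole coding sequence, Gja1-201 and Gja1-206. Both use the same second exon of 2882 bases and differ in a noncoding first exon of 189 or 300 bases. Of the 31-base words of each, 6.22% in Gja1-201 and 9.52% in Gja1-206 are not in the other. In the table made from alignments Gja1-201 held 118.92 and 135.11 TPM, and Gja1-206 held 0.00 and 0.50 TPM. In the table made from the reads they stood side by side, Gja1-201 at 67.3 and 75.4 TPM and Gja1-206 at 63.0 and 73.9 TPM. The share of Gja1-201 in the gene was therefore 98.2 ± 0.204% in one table and 50 ± 0.703% in the other. The first exon of Gja1-206 lies within the retained-intron transcript Gja1-204, which held 1.88 and 1.25 TPM in the first table and 2.17 and 1.40 TPM in the second. The sum over the gene differed far less between the tables than this split, and the encoded protein is the same for both transcripts.

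Gjc1 has the same arrangement with alternative noncoding first exons. Gjc1-201 and Gjc1-202 begin with exons of 210 and 197 bases and share the other exons. In the table made from alignments Gjc1-201 held 0.00 and 2.81 TPM and Gjc1-202 7.99 and 5.28 TPM. In the table made from the reads Gjc1-201 held 9.07 and 4.85 TPM and Gjc1-202 0.0103 and 4.27 TPM. In replicate 1 each table gave nearly all of the gene to a different first exon, and in replicate 2 both tables split it. The total of Gjc1 was 8.67 and 8.98 TPM in the first table, so the split between first exons varied more than the level of the gene.

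**Figure D3:**
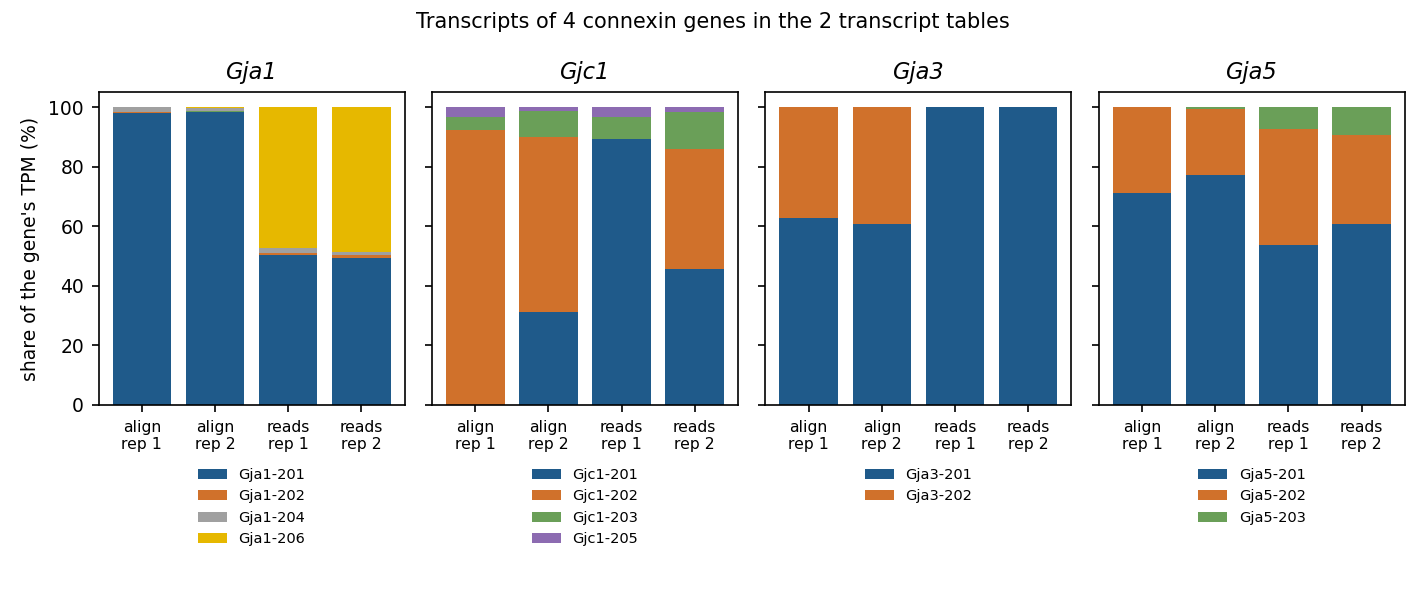
Share of each gene's TPM held by its annotated transcripts, as stacked bars adding to 100%, in the table made from alignments (align) and the table made directly from the reads (reads) for replicates 1 and 2; transcripts under 0.5% in both tables are drawn but not named. Gja1-201 holds 98.0% and 98.3% of Gja1 in the first table and 50.5% and 49.5% in the second.

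Promoter sequences bear on these first exons and were at hand from RefSeq (GRCm38.p6) for 7 members, not Gjc1 and Gjd3. The 250 bases before the RefSeq start were searched on both strands for 5 motifs, and the share of 32851 promoters of the same length that hold each is given with it. The TATA box was searched as TATAAA, held by 12.4% of promoters. The GC box was searched as GGGCGG, held by 32.7%. A T-box site was searched as AGGTGTGA, held by 1.12%. The core of an Nkx2-5 site was searched as AAGTG, held by 40.7%. An AP-1 site was searched as TGACTCA, held by 4.46%. The windows of Gja1 and Gja5 are printed, as those of the most abundant member and of the member tied to the conduction system, on the strand of the gene with matches in capitals. The start of Gja1 lies 30 bases before the first base of Gja1-201, and that of Gja5 lies 14 bases before the shared first exon of Gja5-201 and Gja5-202.
Gja1 promoter (chr10:56377050-56377299, plus strand): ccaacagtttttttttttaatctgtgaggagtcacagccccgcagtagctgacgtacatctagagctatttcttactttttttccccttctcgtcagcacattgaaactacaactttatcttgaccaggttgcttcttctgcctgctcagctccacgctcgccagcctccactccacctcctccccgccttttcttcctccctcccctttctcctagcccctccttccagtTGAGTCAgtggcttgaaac
Gja5 promoter (chr3:97032152-97032401, plus strand): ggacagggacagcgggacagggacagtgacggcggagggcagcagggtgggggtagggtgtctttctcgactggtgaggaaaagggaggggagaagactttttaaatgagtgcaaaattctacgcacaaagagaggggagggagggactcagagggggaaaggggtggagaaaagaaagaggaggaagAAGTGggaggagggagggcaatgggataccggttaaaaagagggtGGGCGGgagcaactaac

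The Gja1 window held 1 match to the AP-1 motif, on the opposite strand, and none to the other 4. The Gja5 window held 1 match to AAGTG and 1 to GGGCGG. The Gja4 window held 1 match to GGGCGG, and that of Gjb2, a gene with 1 count in each library, held 2. The Gjc3 window held 2 matches to AAGTG and that of Gjb6 held 1. Gja3 has 2 RefSeq starts, and the window of the upstream one held 1 match to TATAAA. Both windows of Gja3 overlap the first exon of Gja3-201. AGGTGTGA was found in none of the members' windows. A match is a run of letters and not a shown binding site, and no binding was measured.

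The genes that act with connexins were described by lists of textbook members, chosen with earlier results of these data known. Detection of a list is therefore a description only. Among all nuclear protein-coding genes 49.8% were detected. All 18 connexin partners and kinases were detected, with a median of 21.6 ± 1.34 TPM. Nedd4, a ubiquitin ligase of Cx43, was the highest at 127.99 and 136.65 TPM, and Tjp1, the scaffold ZO-1 that borders gap junction plaques, stood at 29.66 and 38.21 TPM. All 8 genes of the mechanical junctions of the intercalated disc were detected, with a median of 67.7 ± 3.80 TPM. Dsp, the desmosome linker, was the highest at 212.85 and 221.18 TPM, and Cdh2, the cadherin of the disc, stood at 96.92 and 104.28 TPM. Gja1, at 121.31 and 137.41 TPM, lay between Cdh2 and Dsp in both libraries.

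Of 14 transcription factors known to act on connexin genes, 13 were detected, with a median of 13.1 ± 0.216 TPM. Gata4 was the highest at 37.57 and 40.14 TPM. Nkx2-5, an activator of Gja5, stood at 33.85 and 36.89 TPM and Tbx5, its partner there, at 15.59 and 14.16 TPM. Tbx3 and Tbx2, repressors of Gja1 and Gja5 in nodal tissue, stood at 3.85 and 3.92 TPM and at 2.02 and 2.10 TPM. Hand1, the undetected one, had 1 and 0 counts. Among the 10957 detected nuclear protein-coding genes the median was 8.53 and 8.82 TPM, which Gata4, Nkx2-5 and Tbx5 exceeded and Tbx2 and Tbx3 did not.

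Markers of the cells known to use each connexin were at levels of a different order. The 5 markers of cardiomyocytes had medians of 3282 and 3564 TPM, and Myh6, the alpha myosin heavy chain of heart muscle, stood at 7294 and 8105 TPM. The atrial list had a median of 118 ± 4.55 TPM, with Nppa, the atrial natriuretic peptide, at 698.21 and 697.30 TPM. Of 11 genes of nodes and conduction tissue 8 were detected, with a median of 2.70 ± 0.0849 TPM, and Hcn4, the pacemaker channel, stood at 2.87 and 3.12 TPM. Shox2 and Isl1, markers of the sinus node, stood at 0.32 and 0.29 TPM and at 0.11 and 0.05 TPM. Irx3, a transcription factor of the conduction system and the highest of the list, stood at 11.94 and 12.25 TPM. Gja5 and Gjc1 lay between Hcn4 and Irx3 in both libraries, but so did Gja3 and Gja4, so this place is not particular to them. After Irx3 the highest gene of the list was Cacna1g, at 4.49 and 4.68 TPM. Gja5, at 4.76 and 5.45 TPM, and Gjc1, at 8.67 and 8.98 TPM, were above Cacna1g. Gjd3 lay below Hcn4.

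For the vessels, 6 of 8 arterial endothelial genes were detected, with a median of 4.16 ± 0.0530 TPM. The ligand Efnb2 was the highest at 8.41 and 9.23 TPM, and Gkn3 the lowest at 0.30 and 0.64 TPM. Gja4 and Gja5, at 4.23 to 5.45 TPM, lay within this wide range, but so did Gja3 at 7.03 and 8.59 TPM. Gjc1, at 8.67 and 8.98 TPM, lay within it in replicate 2 only. The 7 general endothelial genes were all detected, with a median of 30.7 ± 0.997 TPM and Pecam1, an adhesion molecule, at 45.81 and 47.29 TPM. Over 5 pericyte genes the median was 12.7 ± 0.339 TPM, with Rgs5 the highest at 102.74 and 109.74 TPM. For smooth muscle the median over 5 genes was 28.1 ± 7.45 TPM, and Acta2, the actin of smooth muscle, was the highest at 36.31 and 51.21 TPM. Over 6 fibroblast genes it was 16.1 ± 0.491 TPM, with Dcn at 137.10 and 153.55 TPM, and over 5 macrophage genes 10.6 ± 1.03 TPM, with Lyz2 the highest. Over 6 mesothelial genes it was 2.57 ± 0.460 TPM, with Upk3b at 6.32 and 7.13 TPM. Levels in bulk tissue do not assign a connexin to a cell.

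The undetected members were set beside the cells in which they are known. Of 8 Schwann cell genes 3 were detected, with Cnp the highest at 2.04 and 2.16 TPM and Mbp, a protein of myelin, at 1.96 and 1.94 TPM. Gjc3, which belongs to the same cells, had 14 and 15 counts. None of 5 epithelial genes was detected, Krt8 being the highest at 0.68 and 0.65 TPM and Epcam at 0 counts, beside 1 count of Gjb2 and 0 of Gjb6 in each library.

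The 2 hearts were also compared with each other, as replicate 2 over replicate 1 of counts scaled by TMM, a method that sets most genes to no difference. With 1 library per mouse and 1 group there is no test and no p-value. Of 12454 genes with a mean of at least 50 counts, 71 (0.570%) were past 2-fold in either direction. Of the 5 detected members none was past 2-fold, a count near that background.

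Gja5 had the largest ratio of the 5, with 329 and 463 counts and a log2 ratio of 0.26 (exact 95% counting interval 0.05 to 0.47), which is 1.20-fold. Gja3 followed at 0.19 (-0.00 to 0.39), Gja1 at 0.13 (0.09 to 0.16) and Gja4 at 0.09 (-0.18 to 0.36). Gjc1 was at -0.01 (-0.18 to 0.17). The ratio of Gja5 was larger in size than that of 88.4% of all tested genes and the ratio of Gjc1 than that of 5.75%. The intervals of Gja1 and Gja5 lay above 0, but they cover counting error only and not the spread between mice or between library preparations. Scaled by spike-ins, added RNA of known amount, all 5 members and 87.9% of all tested genes were higher in replicate 2, and the median over all genes moved from 0.005 to 0.177 on the log2 scale.

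Summed levels of blood and smooth muscle genes differed between the same 2 libraries. The summed TPM of 4 red cell genes in replicate 2 was 0.313 times that in replicate 1, and Hbb-bs, a beta globin, stood at 7512 and 2215 TPM. The 4 platelet genes were at 0.481 times and the 5 smooth muscle genes at 1.32 times their sum in replicate 1. Of the smooth muscle genes, Acta2, Tagln, Myh11 and Myocd were higher in replicate 2. Cnn1 was lower in TPM, at 4.29 and 3.22, though on 116 and 168 counts. The 5 cardiomyocyte genes were at 1.10 times, the 8 arterial genes at 1.02 times and the 6 atrial genes at 1.01 times. On this measure, which is not the TMM-scaled ratio above, the 9 members were at 1.13 times. The part of blood and of vessel wall in the ratios of Gja1 and Gja5 was not tested.

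**Figure D4:**
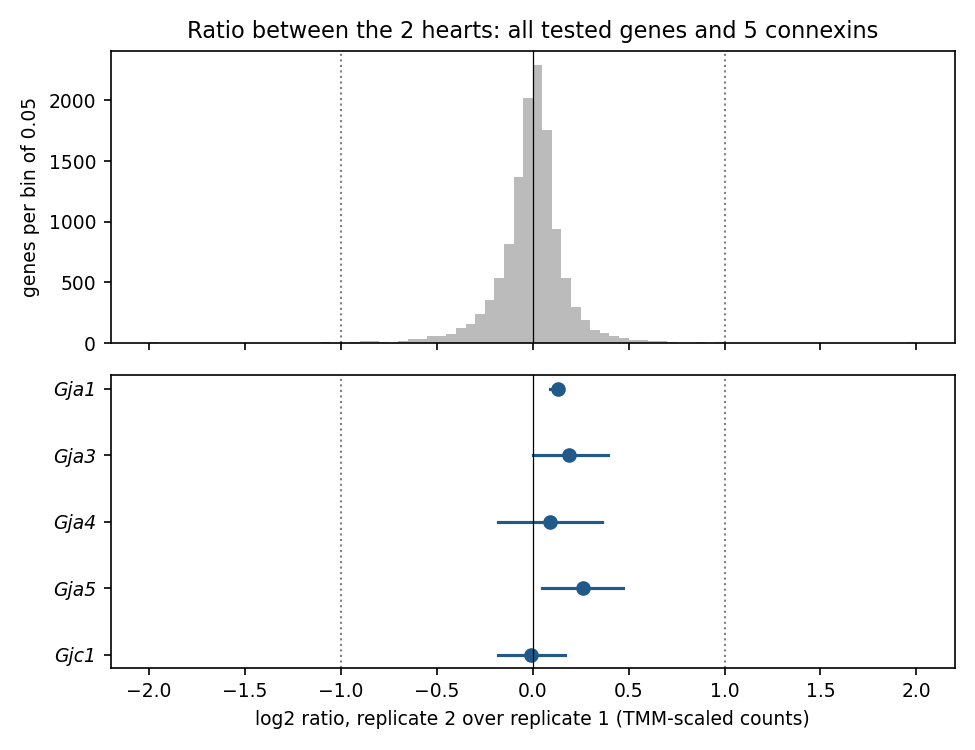
Top, the log2 ratio of replicate 2 over replicate 1 for 12454 genes in bins of 0.05, with values beyond 2 either way drawn in the outermost bins; bottom, the same ratio for the 5 detected connexins with its exact 95% counting interval, and dotted lines at 2-fold. The 5 connexins lie between -0.01 and 0.26, inside the bulk of all genes.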

How the data were processed

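Total RNA-seq libraries of 2 mouse hearts, each from 300 ng of RNA, were read from the gene and transcript tables the authors deposited (mm10, GENCODE M21, per the file headers and deposited file descriptions). The authors deposited expected counts, TPM, FPKM and a TPM interval per gene, with the column names RSEM writes; the level of the interval is not stated. The deposited table made directly from the reads holds estimated counts and TPM under kallisto's column names. Tool versions and the strand setting: not given in the sources used here. Reads of the CAST allele were counted against the B6 reference, and the effect was not tested.

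Levels are the mean and SD of TPM over 2 libraries; detection is 1 TPM in both. Expected counts were rounded and scaled by TMM (edgeR 4.0.16, R 4.3.3; log2 size ratio 0.23) with a prior count of 0.5. Intervals are Clopper-Pearson and, like floors of 3 counts, cover counting error only, since there are no molecular identifiers. The ratio was tested on simulated counts of 12912 genes: of 200 genes changed 4-fold 97% were called at 2-fold, with 1 unchanged gene called. The simulated counts held counting error only, with no spread between mice or library preparations. They therefore say nothing on how such spread moves the ratio, or on changes smaller than 4-fold. Coding sequences are those of the lowest-numbered complete transcript, a rule set after the models were seen; lengths and coordinates come from GENCODE M21. Spike-ins (96) and 26249 unannotated entries (3 and 2 counts) were left out.

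The members and lists were chosen with earlier results of these data known. All members, the other connexins, the pannexins, the highest gene of each list and genes a sentence turns on were to be named; some genes outside the members are not reported here. Alternatives were the second table, posterior mean TPM, FPKM, rescaled TPM, DESeq2 1.42.0, total and spike-in scaling, other thresholds and priors, and each library left out. Protein sequences and the promoters of Gjc1 and Gjd3 were not analysed here. Analyses ran in Python 3.11.15 with scipy 1.17.1.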

Additional observations from a re-analysis of the deposited data

How the results depend on the processing

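The number of detected members, 5, was the same at 0.5 TPM, in the table made from the reads and with either library left out, and was 7 at 0.1 TPM. In the table made from the reads mean levels moved to 143 TPM for Gja1, 10.4 for Gjc1, 5.51 for Gja3, 6.86 for Gja5 and 4.92 for Gja4. Rescaled to nuclear protein-coding genes, which held 38.7% and 39.4% of TPM, they were 331, 22.6, 20, 13.1 and 11.4. With transcripts of at least 500 bases only, an alternative chosen after seeing the data, Gja3 moved to 4.81 and Gja5 to 3.82 TPM. With the same limit in the table made from the reads, also chosen after seeing the data, the means were 142 TPM for Gja1, 10.4 for Gjc1, 5.51 for Gja3, 4.53 for Gja5 and 4.92 for Gja4. Without either library the means of Gja1 were 121 to 137 TPM.

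The share of Gja1, 82.8%, was 83.3% in the table made from the reads, 82.2% with posterior mean TPM, 88.4% of expected counts, 83.0% among the members and 85.1% over transcripts of at least 500 bases. The shares of Gja3 and Gja5 changed places in the table made from the reads, at 3.20% and 3.24% for Gja3 and 4.04% and 3.98% for Gja5. Of expected counts Gja3 held 3.01% and 3.15%, and Gja5 2.61% and 2.86%. The log2 ratio of Gja3 to Gja5 reversed from 0.61 to -0.32 in the table made from the reads and was 0.34 over the long transcripts. That of Gja5 to Gja4 reversed from 0.20 to -0.23 over the long transcripts and was 0.48 in the table made from the reads. That of Gjc1 to Gja3 moved from 0.18 to 0.92 and 0.88 under the same settings, and that of Gja1 to Gjc1 from 3.87 to 3.78 in the table made from the reads. Over the long transcripts of the table made from the reads, the log2 ratio of Gja3 to Gja5 was 0.29, that of Gja5 to Gja4 reversed to -0.13, that of Gjc1 to Gja3 was 0.92 and that of Gja1 to Gjc1 was 3.77. The transcripts dominant in the table made from alignments had other shares in the full table made from the reads. These were 50% for Gja1, 100% for Gja3, 57.4% for Gja5 and 20.2% for Gjc1. For Gjc1 that transcript is Gjc1-202, and Gjc1-201 held a mean of 67.5% in the table made from the reads. Without either library the share of Gjc1-202 from alignments was 58.8 to 92.2%. Apart from the short transcripts of Gja3 and Gja5, the cause was not tested. Genes past 2-fold between mice numbered 205 at a minimum of 20 counts and 22 at 200. Spike-in scaling gave ratios of 0.17 to 0.43 for the 5 members. No paired analysis was possible because there is 1 group. Gjd3, Gjc3 and Gjb2 had too few counts to be compared between the mice. Apart from the libraries left out, 47 of 88 alternative values stayed within the spread between libraries or the counting interval (for counts, within 1.5 times), 38 moved further and 3 reversed. Leaving out 1 of 2 libraries moves a mean by less than its SD by construction, so those values say nothing on stability.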
